A study of Mus musculus with 7 samples.

Results

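Integrins are the cell surface receptors that tie a cell to the matrix around it. Each receptor pairs an alpha with a beta subunit, and the pair sets which ligand is bound: Itga3 and Itga6 belong to laminin receptors, Itga1 and Itga2 to collagen receptors, Itga5 to the fibronectin receptor, and Itgav with Itgb3 or Itgb5 to receptors for vitronectin and related proteins. In the mammary gland, antibodies to the products of Itgb1 (CD29) and Itga6 (CD49f) are widely used to sort basal from luminal cells, and Itga6 with Itgb4 forms the receptor of hemidesmosomes, the junctions that anchor epithelium to its basement membrane.

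The 10 subunits described were chosen by symbol (Itga1, Itga2, Itga3, Itga5, Itga6, Itgav, Itgb1, Itgb3, Itgb4 and Itgb5) from the 27998 genes of the count matrix, in which 16 other integrin subunits of the gene lists used were also present. All were measured by single-cell RNA-seq of the digested #4 glands, taken without their lymph nodes, from nulliparous females of a mixed FVB, 129 and C57BL/6J background, all at diestrus, with no transgene or treatment stated. The 3 Young mice (A, B and C) were 3 to 4 months old and the 4 Aged mice (A, B, C and D) 13 to 14 months old, with 1 library per mouse. The authors assigned the 13684 cells to 13 cell types, and those names are used throughout. All 10 subunits had reads, from 163 UMIs (unique molecular identifiers, 1 per captured RNA molecule) of Itga2 to 6306 of Itga6 and 8587 of Itgb1 over all cells, and no cell held more than 9 UMIs of any of them.

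Libraries held 1264 to 2865 cells and 6652599 to 16999625 UMIs. Cell barcodes of the young and aged libraries were written in different formats, and age cannot be told apart from anything else that differed between the libraries of the age groups. Each pair of mice shared 1 to 10 barcodes. Levels are given as CPM, the UMIs of a gene summed over the cells of a type in a mouse, per 1000000 UMIs of that sum. Because 1 RNA gives 1 UMI at its 3′ end, these values do not grow with the length of the gene. The mouse was the replicate (n = 7), and a type of a mouse entered with at least 10 cells, which held for all 7 mice in Myoepithelial, Luminal-HS (hormone-sensing), Luminal-AV (alveolar), Fibroblast, Vascular endothelial and Pericyte cells.

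In GENCODE vM21 on GRCm38, Itga1 (chr13:114953096-115101964) and Itga2 (chr13:114833081-114932100) lie side by side on the minus strand. The other genes are Itga3 (chr11:95044474-95076801, minus), Itga5 (chr15:103344286-103366763, minus), Itga6 (chr2:71745616-71858416, plus), Itgav (chr2:83724397-83806916, plus), Itgb1 (chr8:128685654-128733200, plus), Itgb3 (chr11:104608000-104670476, plus), Itgb4 (chr11:115974709-116008412, plus) and Itgb5 (chr16:33829665-33949338, plus). For Itga5 and Itga3, both of which rose in aged myoepithelial cells below, the 150 bases before the RefSeq transcript start (GRCm38.p6, 5′ to 3′ on the gene's strand) are printed to show the sequence that precedes them. Itga3 has another start in the table, which is not shown. The RefSeq start used for Itga3 lies inside the GENCODE span given above, so part of its printed sequence falls within that span. Capitals mark GGGCGG on either strand, the core of the GC box.
Itga5, chr15:103366792-103366941, minus strand: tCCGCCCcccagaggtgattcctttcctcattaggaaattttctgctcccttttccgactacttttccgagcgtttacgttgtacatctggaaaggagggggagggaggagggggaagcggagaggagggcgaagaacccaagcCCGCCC
Itga3, chr11:95076715-95076864, minus strand: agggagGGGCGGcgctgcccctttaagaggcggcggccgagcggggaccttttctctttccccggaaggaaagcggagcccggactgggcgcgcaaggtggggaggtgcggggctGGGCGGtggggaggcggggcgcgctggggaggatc
Within 250 bases before the start, Itga5 had 2 such matches and Itga3 had 3. GGGCGG on either strand was in 32.7% of all 32851 promoter windows of that length. TGANTCA, the letters of an AP-1 site, was in 6.75% of them and in neither of these promoters.

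Itgb1, the beta subunit shared by most matrix-binding integrins, had the highest mean of the 10 members over all 7 mice in each of the 6 types that all of them held. In the young mice alone, mean Itga6 was above mean Itgb1 in Vascular endothelial (255.8 against 214.0 CPM), Luminal-HS (75.6 against 63.3) and Myoepithelial cells (174.3 against 172.4). The level of Itgb1 was 269.0 CPM ± 79.1 (SD, n = 7 mice) in Pericyte, 210.6 ± 45.4 in Myoepithelial, 185.8 ± 36.5 in Vascular endothelial, 109.7 ± 10.7 in Fibroblast, 78.8 ± 23.7 in Luminal-HS and 56.5 ± 10.3 in Luminal-AV cells. Macrophage Ma cells, which 3 young mice held in number, had 132.2 ± 30.8 CPM (n = 3), and Macrophage Mb cells had the lowest level, 38.4 ± 11.9 (n = 3).

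Among the laminin receptor subunits, Itga6 stood at 167.2 ± 38.3 CPM in Myoepithelial, 151.9 ± 98.4 in Vascular endothelial and 95.4 ± 49.8 in Pericyte cells (SD, n = 7). It was lower in Luminal-HS (72.7 ± 18.3) and Luminal-AV (50.8 ± 16.1) and lowest in Fibroblast cells (17.3 ± 7.53) of the types present in all mice. The wide SD in the vascular types came with age groups that did not overlap, described below. Itga3 had its highest mean in Myoepithelial cells, 41.1 ± 10.2 CPM, against 19.7 ± 6.23 in Luminal-HS, 17.5 ± 8.0 in Vascular endothelial and 0.860 ± 1.33 in Fibroblast cells. Itgb4, the partner of Itga6 in hemidesmosomes, was far less abundant, at 25.0 ± 18.3 CPM in Myoepithelial, 16.3 ± 10.1 in Vascular endothelial, 14.8 ± 4.03 in Luminal-HS and 11.04 ± 2.53 in Luminal-AV cells.

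The collagen receptor subunits were the rarest. Itga1 was mainly seen in Pericyte (15.9 ± 8.54 CPM) and Vascular endothelial cells (13.9 ± 12.1), and stayed at 0.372 ± 0.406 in Luminal-HS cells. The Pericyte sums also held vascular endothelial markers, at 1628 to 1759 CPM in young mice beside 2072 to 2301 in young Vascular endothelial sums. The part of these in the Pericyte levels of any member was not tested. Itga2 reached 3.08 ± 1.98 CPM in Luminal-AV and 2.82 ± 2.06 in Myoepithelial cells. It had 0 UMIs in 1819 Vascular endothelial cells, which allows a share of cells with a UMI of up to 0.165%. Itga5, of the fibronectin receptor, was at 61.7 ± 20.1 CPM in Vascular endothelial, 46.7 ± 22.1 in Fibroblast and 46.5 ± 30.1 in Pericyte cells. It was lower in Luminal-HS (6.79 ± 2.27) and Luminal-AV cells (2.35 ± 1.52), with Myoepithelial cells between at 21.9 ± 9.9. In aged mice alone, mean Itga5 was 28.6 CPM in Myoepithelial and 25.8 in Pericyte cells.

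The subunits of the vitronectin receptors had still other orders. Itgb5 was at 241.5 ± 66.0 CPM in Macrophage Mb cells of the 3 young mice (304.2, 247.6 and 172.6 in A, B and C), against 94.0 ± 34.0 in Fibroblast cells and 9.77 ± 6.54 in Vascular endothelial cells. Macrophage Ma cells of the same 3 mice had 20.2 ± 12.03 CPM, and the lowest Macrophage Mb value was above the highest Macrophage Ma value of 33.5 CPM. Itgav was spread more evenly, from 90.5 ± 17.1 CPM (n = 3) in Luminal-HS-AV and 88.5 ± 37.0 (n = 3) in Macrophage Mb to 13.2 ± 4.37 in Vascular endothelial cells. The means with n = 3 are of young mice only, while the others pool both ages. In young mice alone, Itgav was at 83.5 ± 18.5 CPM in Myoepithelial cells. Itgb5 was then at 108.6 ± 10.7 in Fibroblast and 15.9 ± 4.71 in Vascular endothelial cells. Itgb3, also known as a subunit of the platelet fibrinogen receptor, was highest in Fibroblast cells (17.0 ± 8.57 CPM) and at 0.287 ± 0.506 in Luminal-HS cells.

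**Figure D1:**
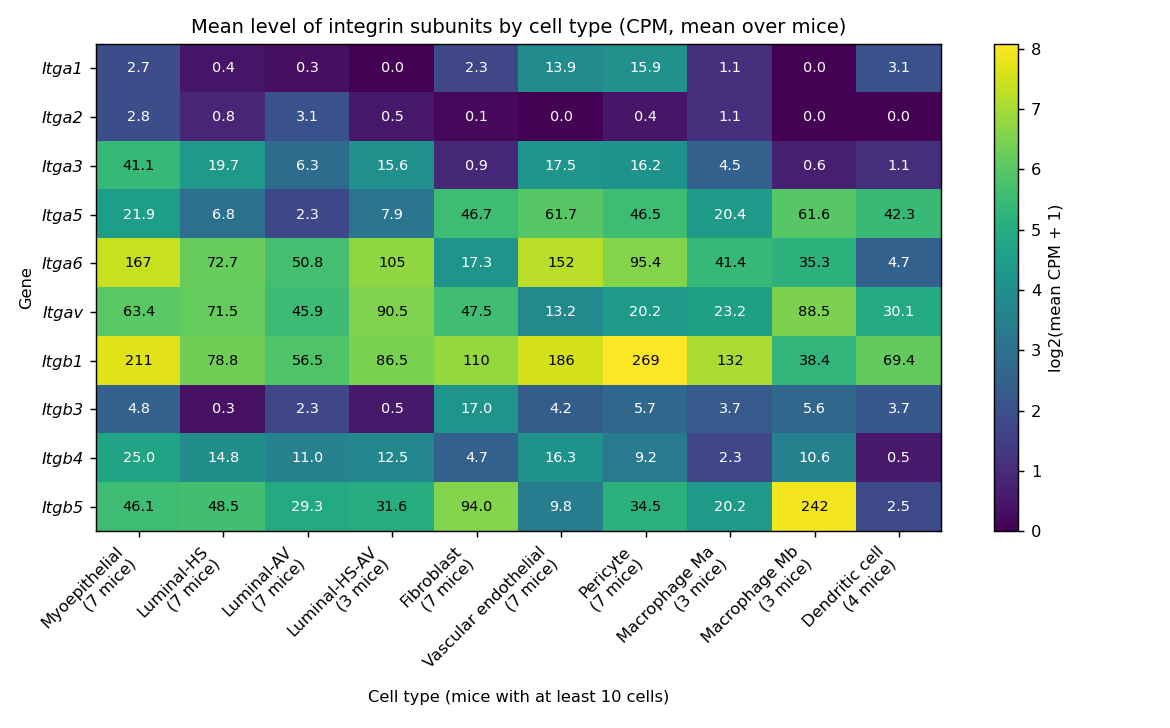
Mean CPM of each integrin subunit (rows) in the 10 cell types with at least 10 cells in at least 3 mice (columns), with the mean over mice written in each field and its log2 after adding 1 as colour. Itgb1 and Itga6 are high in Myoepithelial, Vascular endothelial and Pericyte cells, and Itgb5 reaches 242 CPM in Macrophage Mb cells. Means of Luminal-HS-AV, Macrophage Ma and Macrophage Mb cells are of young mice only, and the others pool both ages.

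Neighbours in these orders were compared by a test that, after adjustment, had no power to tell them apart. Over the 10 types with at least 3 mice, 90 pairs of neighbouring types were compared by an exact two-sided sign-flip permutation test on log2(CPM + 1), paired by mouse. After Benjamini-Hochberg adjustment over the 90 pairs 0 passed 0.05, and 4 had an unadjusted p under 0.05. No pair could have passed, because most pairs had 3 or 4 mice and few had all 7. The adjusted values therefore do not show whether neighbours differ. Itga3 was higher in Myoepithelial than in Luminal-HS cells in 7 of 7 mice (exact permutation p = 0.0156, the smallest that 7 mice allow, adjusted p = 0.468). Itga5 and Itga6 were each higher in Luminal-HS than in Luminal-AV cells in 7 of 7 mice with the same p values. Itgb5 was higher in Fibroblast than in Luminal-HS cells in 6 of 7 mice (exact permutation p = 0.0469, adjusted p = 0.938). With 3 mice this test cannot go below 0.25.

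At a depth thinned to 2000 UMIs per cell, at least 1 UMI of Itgb1 was found in 37.0% of Pericyte, 35.6% of Myoepithelial, 31.3% of Vascular endothelial and 10.8% of Luminal-AV cells (68.2%, 62.5%, 58.2% and 32.5% before thinning). Itga6 was in 28.6% of Myoepithelial and 26.1% of Vascular endothelial cells after thinning (50.4% and 46.7% before), against 0.442% of Dendritic cells (3.54% before), the type lowest in Itga6. Median UMIs were 4431, 4907 and 4648 in these types. For Itgb5 the share was 44.5% of Macrophage Mb cells (71.9% before, median 5343 UMIs) and 0% of Dendritic cells (1.77% before). Itgb4 was in 3.53% of Myoepithelial and 3.41% of Vascular endothelial cells after thinning (7.31% and 7.26% before), against 0.301% of Fibroblast cells (0.953% before, median 4414 UMIs). These shares pool cells of all mice and both ages. After thinning, Itgb4 was in 7.12% of young and 2.81% of aged Myoepithelial cells, and in 1.82% and 5.07% of Vascular endothelial cells. Itgb5 was in 49.2% of 124 young and 18.2% of 22 aged Macrophage Mb cells.

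UMIs of both Itga6 and Itgb4 were rarely caught in 1 cell. In young Myoepithelial cells 8 of 281 thinned cells had both, beside 4.34 from the product of the separate shares, and in aged ones 10 of 1389, beside 11.7. In Vascular endothelial cells 4 of 932 young cells had both, beside 6.49, and 6 of 887 aged cells, beside 6.04. Itgav with Itgb5 was found together in 20 of 1571 young Luminal-HS cells beside 12.7, in 16 of 567 aged ones beside 8.64, and in 9 of 124 young Macrophage Mb cells beside 9.84. In Luminal-AV cells 5 of 794 young cells had both, beside 4.23, and 14 of 4026 aged cells, beside 17.7. In Myoepithelial cells it was 1 of 281 young cells beside 4.16 and 18 of 1389 aged cells beside 10.5. Young Fibroblast cells had 47 of 1799 beside 40.0. These counts pool cells of several mice and are given without a test.

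Types of the same mice were then compared with the mouse as a block (edgeR's quasi-likelihood test, with a fold minimum and a Benjamini-Hochberg adjusted p under 0.05 over all genes tested). The authors named the types from clusters of these same cells, so such calls describe types that expression itself defined. Throughout, the SE of an edgeR change is its absolute log2 value divided by the square root of the F statistic, not a separately fitted error. Myoepithelial cells had higher Itgb1, Itga6, Itga3 and Itga5 than both luminal types. Against Luminal-HS cells 4 of the 7 members that passed the filter on low counts were called, all higher, where 64.0% of all genes tested were called. Itgb1 was higher by 1.51 on the log2 scale (SE 0.151, adjusted p = 4.89e-07), Itga6 by 1.30 (SE 0.170, adjusted p = 7.87e-06), Itga3 by 1.14 (SE 0.218) and Itga5 by 1.75 (SE 0.262). Against Luminal-AV cells 5 of 8 were called, again all higher, where 53.7% of all genes were called. The widest gaps were in Itga5, 3.76 (SE 0.452, adjusted p = 7.96e-06), and Itga3, 2.73 (SE 0.212, adjusted p = 9.21e-08). Itgb5 was the fifth call (0.55, SE 0.169, adjusted p = 0.0124) and was lost without Aged B (adjusted p = 0.0541) and with no count filter (0.0718). Itgb4 did not pass in either comparison, at 0.61 (SE 0.290, adjusted p = 0.0760) and 0.64 (SE 0.317, adjusted p = 0.103). Both passed without Aged D (adjusted p = 0.0288 and 0.0270). In young mice alone both passed, at 1.37 (adjusted p = 0.000115) and 1.77 (adjusted p = 0.000787), while Itga3 against Luminal-HS (0.67, adjusted p = 0.0888) and Itgb5 against Luminal-AV cells (0.58, adjusted p = 0.129) did not. Itgav against Luminal-HS cells was 0.74 in young mice alone (adjusted p = 0.00676) and -0.68 in aged mice alone (adjusted p = 0.00243).

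Within the luminal lineage, Luminal-HS exceeded Luminal-AV cells in Itga3 (1.41, SE 0.243, adjusted p = 0.000204), Itga5 (1.64, SE 0.420, adjusted p = 0.00429), Itgav (0.51, SE 0.197, adjusted p = 0.0419) and Itgb5 (0.49, SE 0.160, adjusted p = 0.0176). Itga2 was lower by the same comparison (-1.88, SE 0.528, adjusted p = 0.00770). That made 5 of 8 members called, where 53.1% of all genes were. The Itgav difference was lost without any of Aged B, Aged D, Young A or Young B (adjusted p = 0.114, 0.146, 0.0953 and 0.0822) and by DESeq2 (0.0552), and the Itgb5 difference without Aged A or Aged C (adjusted p = 0.0520 and 0.0651). In young mice alone neither passed (adjusted p = 0.313 and 0.294).

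In the stroma, Vascular endothelial cells carried more of the laminin receptor subunits and of Itga1, and Fibroblast cells more of the vitronectin receptor subunits. Of 9 members tested 8 were called, where 51.5% of all genes were. Itga3 (3.79, SE 0.378), Itga6 (3.76, SE 0.316), Itga1 (3.67, SE 0.419), Itgb4 (1.71, SE 0.426) and Itgb1 (0.94, SE 0.155) were higher in Vascular endothelial cells. Itgb5 (-3.02, SE 0.263), Itgb3 (-2.19, SE 0.389) and Itgav (-1.85, SE 0.263) were lower there than in Fibroblast cells, with adjusted p of 0.00297 or less for all 8. Itgb3 did not pass in aged mice alone (-1.13, adjusted p = 0.180), nor Itgb4 in young mice alone (1.10, adjusted p = 0.0695). Itga2 did not pass the filter, and Itga5 was at 0.30 (SE 0.248, adjusted p = 0.328). Pericyte cells differed from Vascular endothelial cells in 2 of 8 members, where 12.8% of all genes were called: Itgb5 was higher (1.50, SE 0.358, adjusted p = 0.0106) and Itga6 lower (-0.76, SE 0.185, adjusted p = 0.0120). The Itga6 difference was not called without Young C (adjusted p = 0.0563) or in aged mice alone (0.213). Pericyte against Fibroblast cells gave 4 calls among 5 members tested, where 54.3% of all genes were called. Itga6 (2.69, SE 0.283) and Itgb1 (1.07, SE 0.178) were higher and Itgb5 (-1.73, SE 0.243) and Itgav (-1.50, SE 0.2497) lower in Pericyte cells. Vascular endothelial markers summed to 1628 to 1759 CPM in young Pericyte sums, beside 2072 to 2301 in young Vascular endothelial sums. In aged mice they came to 732.8 to 1244 beside 1836 to 2078. Their part in both Pericyte comparisons was not tested.

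Age was tested in each of the 6 types (Aged against Young, at least 1.5-fold, adjusted p under 0.05 by edgeR's quasi-likelihood test). Myoepithelial cells changed in 5 of the 7 members that passed the filter, where 27.6% of all genes tested were called. Itgb4 and Itgav fell, and Itga5, Itga3 and Itgb1 rose. Itgb4 was at 37.8, 54.1 and 39.0 CPM in Young A, B and C and at 13.8, 13.1, 10.8 and 6.85 in Aged A, B, C and D. Every young mouse was above every aged mouse. The fitted change was -1.79 on the log2 scale (SE 0.310, adjusted p = 0.000562), 3.46-fold, and it was called under each of the 17 alternative settings that gave it a value, which thinned cells did not.

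Of the other calls in Myoepithelial cells, Itga5 stood at 9.44, 9.83 and 19.5 CPM in the young and at 33.1, 31.0, 20 and 30.2 in the aged mice. The closest mice, Young C and Aged C, differed by little, and the groups did not overlap. Only 18 of 281 young Myoepithelial cells had a UMI of Itga5. Its change was 1.40 (SE 0.368, adjusted p = 0.00989). Without Young A it was 1.03 (adjusted p = 0.149). Itgav was at 85.9, 63.9 and 100.6 CPM in the young and at 55.1, 41.3, 53.8 and 42.8 in the aged mice, a change of -0.75 (SE 0.224, adjusted p = 0.0202). It was not called without Aged B, Young A or Young C (adjusted p = 0.0541, 0.0860 and 0.0957) or with no count filter (0.0863).

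Itga3 rose from 26.4, 34.4 and 35.7 to 51.5, 55.8, 40.0 and 43.9 CPM, with no overlap (0.77, SE 0.260, adjusted p = 0.0349). Itgb1 was at 132.2, 206.4 and 178.5 CPM in the young and at 254.5, 260.4, 204.6 and 237.3 in the aged mice. Here Young B lay above Aged C (0.64, SE 0.202, adjusted p = 0.0270). Both calls were lost without Young A (adjusted p = 0.239 for Itga3 and 0.172 for Itgb1), without Aged B (0.0964 and 0.0675) or without Aged D (0.0589 and 0.0717). Scaled by plain library totals they were at adjusted p = 0.0790 and 0.0763, and DESeq2 gave Itga3 0.122. Itga6 gave 0.00 (SE 0.224, adjusted p = 0.996), at 146.4, 152.4 and 224.0 CPM in the young and 197.5, 190.5, 147.7 and 111.8 in the aged mice, and Itgb5 gave -0.16 (SE 0.248, adjusted p = 0.670).

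Several measures moved with age in the same Myoepithelial sums. The 7 myoepithelial markers summed to 14590 to 22220 CPM in young and 11420 to 14160 in aged mice, with Acta2, smooth muscle actin, at 4350 to 9250 and 754 to 1820. The 7 fibroblast markers summed to 447.3 to 821.3 CPM in young and 55.3 to 190.2 in aged mice. The 6 immune genes, mainly Cd74, summed to 167.1 to 253.2 and 35.5 to 74.2 CPM, and Epcam, an epithelial marker, was at 371.1 to 483.7 and 1459 to 2089. The 8 macrophage markers summed to 2.83 to 19.5 CPM in young and 0 to 2.41 in aged mice, and Adgre1 and Mrc1 among them were at 0 in all 7. Median UMIs per cell were 4760 to 5227 in young and 3797 to 4856 in aged mice, and mitochondrial UMIs 4.38% to 5.68% and 3.02% to 3.88%. Their part in the integrin values was not tested. With each cell thinned to 2000 UMIs, Itgb1, Itga3 and Itga5 gave 0.48, 0.49 and 1.01 (adjusted p = 0.222, 0.427 and 0.120).

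**Figure D2:**
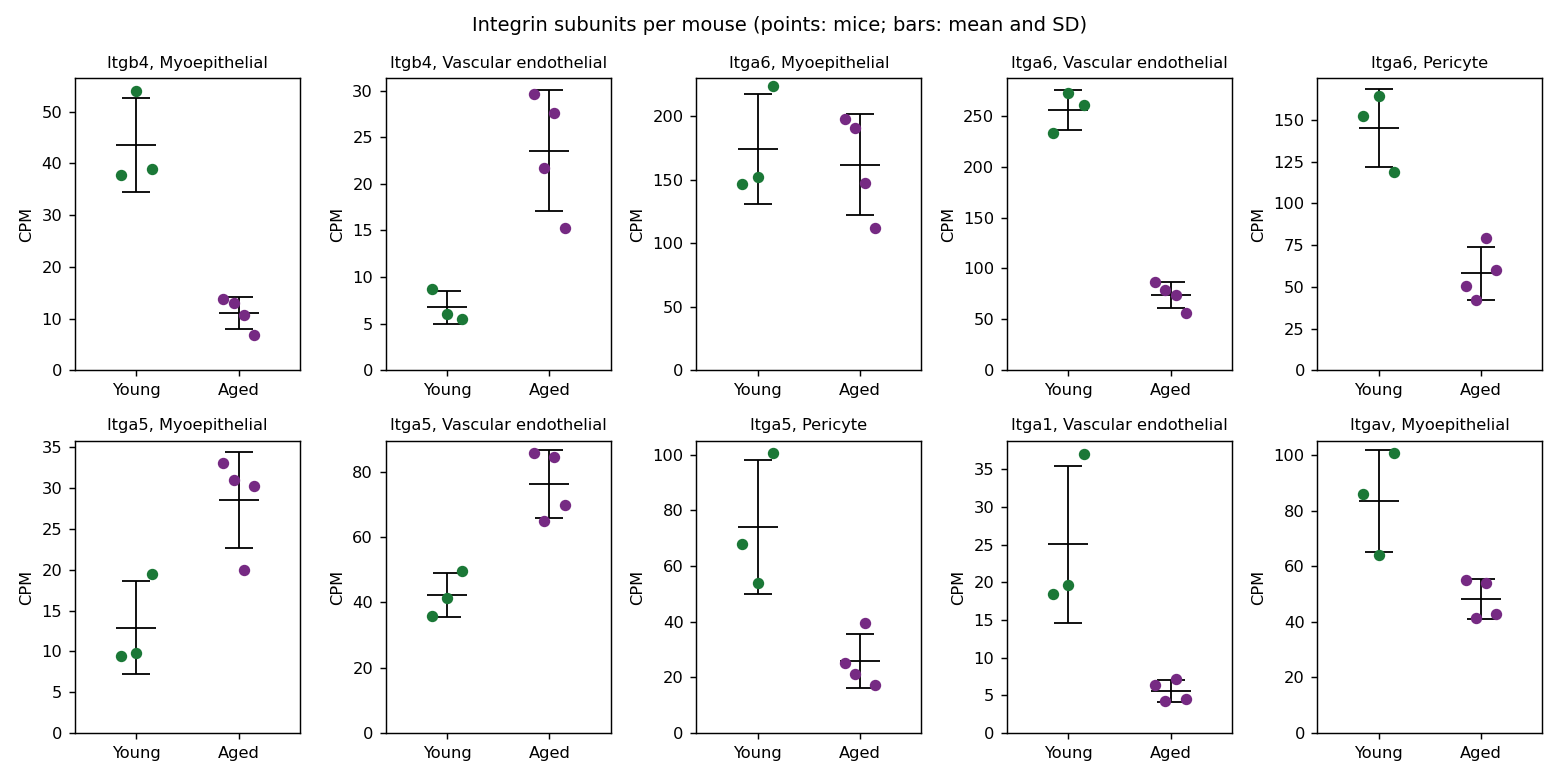
CPM of single members (y axis, linear from 0) in the 3 Young and the 4 Aged mice, 1 point per mouse, with bars for the mean and SD. Itgb4 is lower in aged Myoepithelial and higher in aged Vascular endothelial cells, and Itga5 is higher in aged Vascular endothelial and lower in aged Pericyte sums.

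Vascular endothelial cells also changed in 5 members, of 8 tested, where 26.7% of all genes were called. Itga6, Itga1 and Itgb5 fell, and Itgb4 and Itga5 rose. Itga6 was at 233.7, 272.7 and 261.1 CPM in Young A, B and C and at 86.9, 78.9, 74.0 and 55.9 in Aged A to D. The lowest young value was 2.69 times the highest aged value. Its change was -1.45 (SE 0.158, adjusted p = 2.48e-05). After thinning, 38.2% of young and 13.4% of aged Vascular endothelial cells had a UMI of Itga6 (62.4% and 30.1% before).

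Itgb4 went the other way from its alpha partner. It was at 8.75, 5.99 and 5.50 CPM in the young and at 29.7, 21.7, 27.6 and 15.2 in the aged mice, without overlap. The change was 2.05 (SE 0.309, adjusted p = 0.000280), 4.14-fold. After thinning the cells with a UMI of Itgb4 made up 1.82% of young and 5.07% of aged Vascular endothelial cells. Itga5 was at 36.0, 41.4 and 49.5 CPM in the young and at 85.8, 65.0, 84.7 and 69.8 in the aged mice, a change of 1.23 (SE 0.195, adjusted p = 0.000410). Itga1 stood at 18.5, 19.6 and 37.1 CPM in the young and 6.36, 4.19, 7.13 and 4.44 in the aged mice (-1.75, SE 0.358, adjusted p = 0.00243). These 4 changes were called in every alternative that gave them a value.

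Itgb5, rare in this type, was at 20.4, 16.3 and 11 CPM in the young and at 4.24, 8.38, 3.57 and 4.44 in the aged mice (-1.29, SE 0.340, adjusted p = 0.0117). Again the groups did not overlap, but the call was lost without Young A (adjusted p = 0.0724) and by DESeq2 (0.0501). Itgb1 gave -0.02 (SE 0.158, adjusted p = 0.930), Itga3 0.33 (SE 0.437, adjusted p = 0.610) and Itgav 0.60 (SE 0.369, adjusted p = 0.244, or 0.0338 without Aged B). Scaling by plain library totals moved the median of all genes in this comparison to -0.41 on the log2 scale, and the fitted values above, scaled by TMM, are relative to a median of -0.05.

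In the same sums the 4 hemoglobin genes reached 2019 to 5267 CPM in young and 6.98 to 357.4 in aged mice, and the 3 pericyte markers 98.6 to 346.3 and 5.59 to 66.9. The 7 fibroblast markers summed to 83.8 to 388.9 CPM in young and 43.3 to 67.8 in aged mice. Of epithelial lists, Epcam was at 37.6 to 64.6 and 39.2 to 71.1 CPM, the 8 luminal HS markers summed to 366.4 to 619.8 and 201.9 to 334.8, the 6 luminal AV markers to 371.2 to 782.0 and 408.2 to 804.1, and the 7 myoepithelial markers to 149.7 to 237.8 and 175.3 to 281.8, with Krt14 at 4.90 to 23.4 and 27.6 to 92.0 among the last. The 5 vascular endothelial markers summed to 2072 to 2301 and 1836 to 2078 CPM. Among them Sele, an adhesion molecule of activated endothelium, was at 26.1 to 52.0 and 270.0 to 388.0, Sox17 at 388.0 to 430.0 and 123.0 to 187.0, and Cdh5 at 638.0 to 781.0 and 349.0 to 423.0. Median UMIs per cell were 4421 to 4740 in young and 4805 to 5737 in aged mice, and mitochondrial UMIs 2.87% to 2.93% and 2.23% to 2.29%. The 6 immune genes summed to 198.2 to 603.4 CPM in young and 622.3 to 8702 in aged mice, with Ptprc (CD45) at no more than 2.91 in any mouse and Cd74 up to 8700 in Aged A. Without Aged A the changes of Itga6, Itgb4 and Itga5 were -1.54, 1.93 and 1.17. The part of these measures in the integrin values was not tested.

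Pericyte cells, 20 to 121 per mouse, had 3 members past the filter and 1 call, Itga6, where 11.8% of all genes were called. Itga6 was at 152.2, 164.3 and 118.9 CPM in the young and at 50.5, 42.4, 79.2 and 60.0 in the aged mice, without overlap (-1.17, SE 0.282, adjusted p = 0.0169). The call was lost without Aged B, Young A or Young B (adjusted p = 0.0601, 0.0723 and 0.0711). Itga5 was at 67.8, 53.8 and 100.6 CPM in the young and at 25.3, 21.2, 39.6 and 17.2 in the aged mice, also without overlap, and missed the threshold (-1.24, SE 0.396, adjusted p = 0.0559). Only 14 of 118 aged Pericyte cells had a UMI of Itga5. Itgb1 gave 0.25 (SE 0.259, adjusted p = 0.581). Hemoglobin genes reached 16010 CPM in Aged C and no more than 51.0 in any other mouse. Without Aged C the change of Itga6 was -1.40 (adjusted p = 0.0121) and that of Itga5 passed, at -1.56 (adjusted p = 0.0379). It also passed with plain library totals (-1.42, adjusted p = 0.0308) and with no count filter (-1.39, adjusted p = 0.0248). The 5 vascular endothelial markers summed to 1628 to 1759 CPM in young and 732.8 to 1244 in aged Pericyte sums, and the 7 fibroblast markers to 495.6 to 882.6 and 50.9 to 202.1. The myoepithelial list, 4 of whose 7 genes are also contractile genes of pericytes and smooth muscle, summed to 2107 to 2671 and 5907 to 12680 CPM, led by Acta2 (1050 to 1180 and 2840 to 6810). The 6 luminal AV markers summed to 361.3 to 679.7 and 576.7 to 2495. Of the 3 pericyte markers, which summed to 1088 to 1706 and 1017 to 1389, Des was at 142.0 to 211.0 and 345.0 to 649.0. Median UMIs were 4736 to 5448 and 3716 to 5902, and mitochondrial UMIs 3.91% to 4.51% and 3.31% to 3.93%. The part of these measures was not tested.

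Luminal and Fibroblast cells gave 0 calls among the members by edgeR at the adjusted threshold. Of the members tested, 7 were in Luminal-HS, 9 in Luminal-AV and 6 in Fibroblast cells, where 6.26%, 6.16% and 3.17% of all genes were called. In Luminal-HS cells 3 had an unadjusted p under 0.05, all higher in aged mice: Itgb1 (0.61, SE 0.180, adjusted p = 0.0675), Itgav (0.68, SE 0.215, adjusted p = 0.0850) and Itga5 (0.78, SE 0.310, adjusted p = 0.152). Itgb1 was at 60.1, 65.3 and 64.6 CPM in the young and at 125.2, 79.8, 93.7 and 62.7 in the aged mice, so that Aged D lay among the young. Itgav passed with no count filter (0.62, adjusted p = 0.0429). In these Luminal-HS sums the 7 fibroblast markers came to 67.9 to 185.1 CPM in young and 289.6 to 1834 in aged mice, nearly all of it Dcn in the aged, and the 6 immune genes to 67.9 to 85.3 and 5.43 to 43.3. Their part was not tested. In Luminal-AV and Fibroblast cells 0 members had an unadjusted p under 0.05. Itgb1 in Fibroblast cells gave 0.01 (SE 0.228, adjusted p = 0.995) and lay between 100.6 and 131.3 CPM in all 7 mice.

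**Figure D3:**
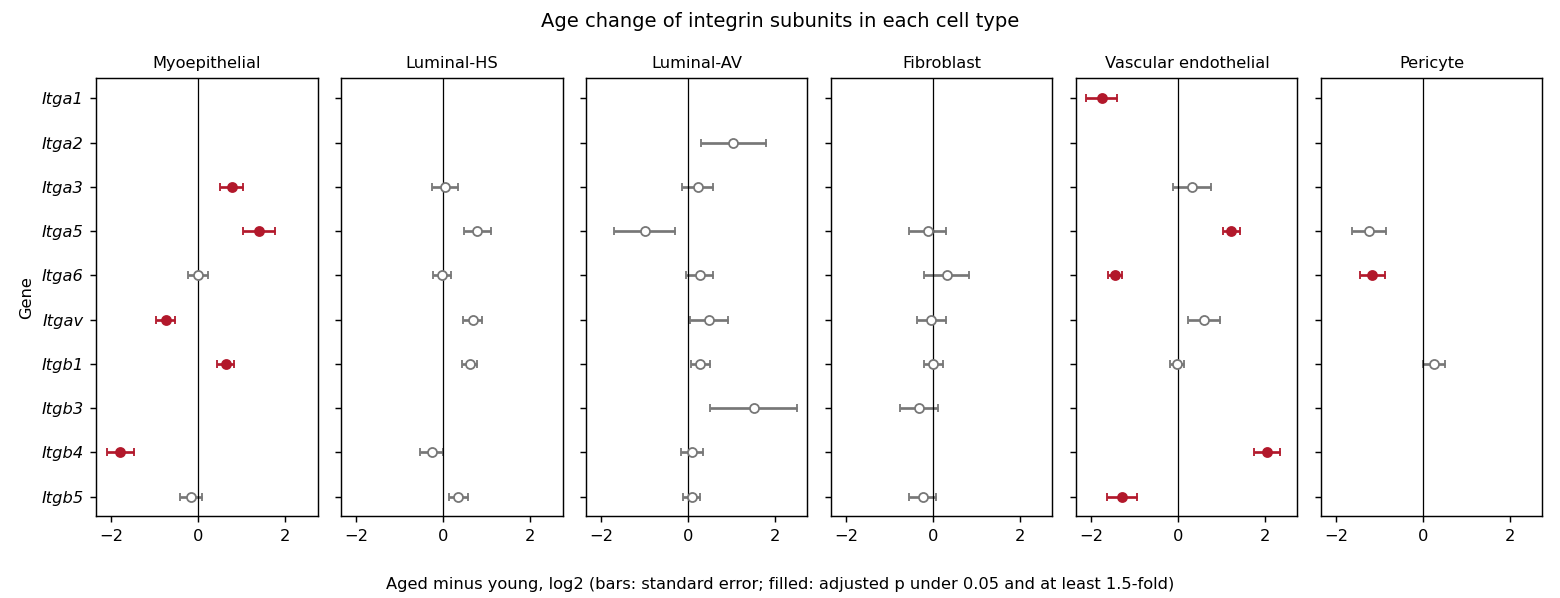
Age change of each member (aged minus young, log2, x axis) in 6 cell types. Bars are standard errors derived from the F statistic, and filled red points are calls (adjusted p under 0.05 and at least 1.5-fold). Members that did not pass the filter on low counts have no point, and the 11 calls lie in Myoepithelial, Vascular endothelial and Pericyte cells.

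Whether an age change differed between types was tested as an interaction over the mice with both types. Myoepithelial and Luminal-HS cells differed in 2 of 7 members, Itgav (-1.34, SE 0.299, adjusted p = 0.00643) and Itgb4 (-1.35, SE 0.429, adjusted p = 0.0495), where 9.35% of all genes were called. The Itgav difference was lost without Young A (adjusted p = 0.0690), and that of Itgb4 was kept when Aged B was left out and lost when any other mouse was (adjusted p = 0.0621 to 0.116), and was at 0.0941 with no count filter and 0.0526 without the cells of highest doublet score. Myoepithelial and Luminal-AV cells differed in Itgb4 (-1.79, SE 0.424, adjusted p = 0.0119) and Itga5 (2.58, SE 0.775, adjusted p = 0.0420) among 8 members, where 9.07% of all genes were called. Without Young A these gave adjusted p = 0.0847 and 0.268, and Itga5 gave 0.0541 with RLE size factors and 0.176 without the cells of highest doublet score. The Itga5 difference was kept when Aged A was left out and lost when any other mouse was, and Itga5 in Luminal-AV cells was below 5 CPM in every mouse.

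Luminal-HS and Luminal-AV cells differed in 0 of 8 members, where 2.37% of all genes were called, and 1 member, Itga5, had an unadjusted p under 0.05 (1.81, SE 0.703, adjusted p = 0.221). Vascular endothelial and Fibroblast cells had 1 call among 9 members, Itga5 (1.30, SE 0.359, adjusted p = 0.0294), where 6.27% of all genes were called. This call was lost without Aged B, Aged C, Aged D or Young C (adjusted p = 0.0690, 0.0734, 0.0673 and 0.150) and with plain library totals (0.106). Itgb3 (2.22, SE 0.693, adjusted p = 0.0585) and Itga6 (-1.60, SE 0.576, adjusted p = 0.111) had an unadjusted p under 0.05 in this pair. Pericyte and Vascular endothelial cells also differed in Itga5 (-2.53, SE 0.399, adjusted p = 4.10e-05), 1 of 8 members, where 9.1% of all genes were called, and this difference was kept with every mouse left out in turn. On the aged Pericyte side it rests on few UMIs, with Itga5 seen in 14 of 118 cells. Itgb4 in the same pair gave -2.61 (SE 0.893, adjusted p = 0.0622). Pericyte and Fibroblast cells differed in 0 of 5 members, where 0.878% of all genes were called, with 1 unadjusted p under 0.05, that of Itga6 (-1.52, SE 0.554, adjusted p = 0.253).

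The balance of both beta subunits was followed as the share of Itgb4 in the UMIs of Itgb1 and Itgb4 together. In Myoepithelial cells it was 22.2%, 20.8% and 17.9% in Young A, B and C and 5.14%, 4.79%, 5.00% and 2.80% in Aged A to D. In Vascular endothelial cells it was 4.64%, 2.80% and 2.12% in the young and 14.6%, 10.5%, 15.1% and 9.52% in the aged mice. The age groups did not overlap in either type, and they lay in opposite order. In Luminal-HS cells it was 23.6%, 16.9% and 22.1% in the young and 13.5%, 9.89%, 11.5% and 17.2% in the aged mice, with Young B just below Aged D. In Luminal-AV cells the groups also overlapped, at 12.1% to 20.2% and 13.6% to 19.6%. The smallest counts of Itgb4 behind these shares were 4 UMIs, in Young C Vascular endothelial and Young B Luminal-AV cells, and 7 UMIs, in Aged C Myoepithelial cells.

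**Figure D4:**
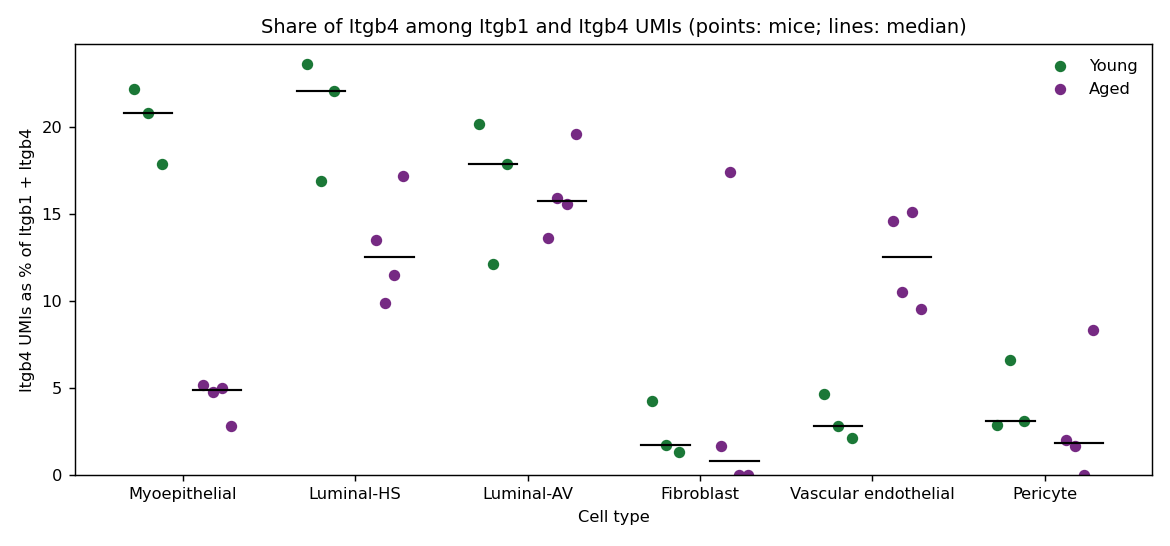
Itgb4 UMIs as a percent of Itgb1 and Itgb4 UMIs (y axis, from 0) in 6 cell types, 1 point per mouse, with lines at the medians of Young (green) and Aged (purple) mice. The aged points lie between 2.80% and 5.14% in Myoepithelial and between 9.52% and 15.1% in Vascular endothelial cells. Points of Fibroblast and Pericyte cells rest on as few as 0 Itgb4 UMIs, as in Aged C.

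Other genes of integrin adhesion were described from 4 lists. The list of 29 activators and linkers is mixed and also holds other regulators, such as Src, Sharpin and Itgb1bp1. Of its genes 24 were tested in Myoepithelial cells and 4 rose and 6 fell with age, beside 27.6% of all genes called there. The median change over the list was -0.17 on the log2 scale, beside 0.01 over all genes tested. Fermt1, a kindlin that activates integrins, rose (1.55, SE 0.217, adjusted p = 0.000115), from 106.8 ± 15.5 CPM in young (SD, n = 3) to 300.8 ± 50.5 in aged mice (n = 4). Pxn, paxillin, rose as well (1.44, SE 0.257). Flna, filamin A, fell (-1.66, SE 0.242, adjusted p = 0.000149), from 358.4 ± 135.0 to 106.2 ± 24.4 CPM, and so did Tns2, a tensin (-1.76, SE 0.484). In Luminal-HS cells Fermt1 was the 1 call among 21 tested and fell (-2.64, SE 0.549, adjusted p = 0.0208), from 40.4 ± 12.3 to 4.32 ± 5.72 CPM.

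In Vascular endothelial cells 3 of the 24 activators and linkers tested rose and 5 fell, beside 26.7% of all genes called, with a median of -0.31 beside -0.05 over all genes. Ptk2b, a focal adhesion kinase relative, rose (2.73, SE 0.272, adjusted p = 1.24e-05), from 7.07 ± 2.31 to 39.2 ± 8.95 CPM. Actn1, an actin crosslinker, rose (1.17, SE 0.170), while Tns1 (-1.55, SE 0.150) and Lims2 (-1.29, SE 0.180) fell. Luminal-AV cells had 3 calls among 25 (Tns3 rose by 1.49, SE 0.317, while Tns1 and Cav1 fell), Pericyte cells 1 among 18 (Tns2 fell), and Fibroblast cells 0 among 18.

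Of the 7 hemidesmosome and tetraspanin partners, Col17a1, a hemidesmosomal collagen, fell in aged Myoepithelial cells (-0.89, SE 0.283, adjusted p = 0.0273), as Itgb4 did. Dst, whose products include the plakin that links hemidesmosomes to keratin, rose there (0.73, SE 0.217, adjusted p = 0.0195) and fell in Luminal-AV cells (-1.11, SE 0.210, adjusted p = 0.0138). The tetraspanin Cd9 rose in Vascular endothelial cells (1.37, SE 0.160, adjusted p = 4.38e-05), from 390.8 ± 71.0 to 787.0 ± 79.3 CPM. Few of the 16 other integrin subunits passed the filter. There were 3 in Myoepithelial, 0 in Luminal-HS, 5 in Luminal-AV, 4 in Fibroblast, 2 in Vascular endothelial and 1 in Pericyte cells. The 1 gene called was Itgal of leukocytes, which fell in Luminal-AV cells from 4.79 ± 3.65 to 0.0823 ± 0.165 CPM. In that type 6.16% of all genes were called. In the same Luminal-AV sums the 6 immune genes came to 102.9 to 160.1 CPM in young and 13.3 to 65.3 in aged mice and the 7 fibroblast markers to 91.7 to 423.6 and 10.6 to 37.2, and their part was not tested.

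The extracellular ligands of these receptors were counted in the same way. In Myoepithelial cells 1 of the 15 ligand genes tested (of 25 listed) rose and 9 fell, with a median of -0.86 beside 0.01 over all genes. In Vascular endothelial cells 1 of 15 rose and 9 fell (median -0.996), in Pericyte cells 1 of 11 and 6 (median -0.97), in Luminal-AV cells 2 of 21 and 6 (median -0.83), and in Fibroblast cells 1 of 18 and 4 (median -0.35). Luminal-HS cells had 4 that rose among 10 and 0 that fell (median 0.75). Over all genes tested, 27.6%, 26.7%, 11.8%, 6.16%, 3.17% and 6.26% were called in these 6 types in the order given. Col3a1, a fibrillar collagen, fell in Fibroblast cells from 2969 ± 799.5 to 1222 ± 349.9 CPM (-1.20, SE 0.248, adjusted p = 0.0189), and Fn1, fibronectin, the ligand of the Itga5 receptor, fell there (-1.23, SE 0.226, adjusted p = 0.00896). Col1a1, Col1a2, Col3a1 and Fn1 are also among the fibroblast markers whose sums are given above. Col4a2, a basement membrane collagen, fell in Vascular endothelial cells (-1.99, SE 0.231), from 299.1 ± 104.4 to 58.9 ± 13.1 CPM, and Nid1 in Pericyte cells (-1.54, SE 0.399). Spp1, osteopontin, a ligand of Itgav receptors, rose in Luminal-AV cells from 0.881 ± 1.07 to 1789 ± 1414 CPM. It was called in 4 other types at means of 33.1 to 39.5 CPM in aged mice. The laminin chains Lamb1 (2.24, SE 0.414) and Lamc1 (1.76, SE 0.344) rose in Luminal-HS cells.

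The genes most like each member were sought among 8069 genes over 58 sums of 1 type in 1 mouse, by Pearson's r of log2(CPM + 1). Sums of 1 mouse share a library and a depth, and the values are a description. Itga6 was nearest to Dusp6 (r = 0.844), Dst (0.824) and Actn4 (0.816), and Itgb5 to the lysosomal genes Ctsf (0.836) and Cd63 (0.783) and to Cpq (0.757). Itga3 was nearest to Cobll1 (0.820), 3010003L21Rik (0.817) and Bcar3 (0.784), and Itgb1 to Nhp2l1 (0.787), Prkar1a (0.785) and Gja1 (0.783). Itga1 followed 5430416O09Rik (0.758), Tnfaip8l1 and Plxna2, and Itga5 followed Agpat4 (0.737), Procr and Nrp2. The nearest gene was weaker for Itgb4 (Snap47, 0.723, then F2rl1 and Pfkl), Itga2 (Gm15867, 0.668, then Anxa8 and Egln3), Itgav (Npc1, 0.654, then Ufsp2 and Ptov1) and Itgb3 (Uap1, 0.592, then Rgmb and Dhrs7).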

How the data were processed

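Raw UMI counts per gene and cell were deposited by the authors, who made 10x Chromium 3′ v2 libraries, ran Cell Ranger v2.0 (build mm10) and kept cells whose UMI number, gene number and mitochondrial share lay within set bounds. The deposited table of cells also holds the authors' cell type names, the fraction of mitochondrial UMIs and the S and G2M phase scores from Seurat. The phase scores were not used. The authors estimated doublets with Scrublet and DoubletFinder; rerunning Scrublet (scanpy 1.11.5) marked 73 cells (0.533%), which stayed in.

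Counts were summed per mouse and type (at least 10 cells). Tests used edgeR 4.0.16 (filterByExpr, TMM, quasi-likelihood, Benjamini-Hochberg adjustment at 0.05) in R 4.3.3. Age needed at least 3 mice of each age and 1.5-fold, types 1.25-fold with the mouse as a block, and the interaction used mouse, type and type by age. On simulated counts with 4-fold changes, 82% (Fibroblast) to 90% (Luminal-HS) of changed genes were recovered in the age comparisons. False calls numbered 4 (Vascular endothelial) to 10 (Myoepithelial). The simulation gave all genes 1 fixed spread (dispersion) and held no smaller changes, so it does not give the recovery of smaller changes. CPM used plain totals, and 1 was added before log2. Alternatives were DESeq2 1.42.0, RLE factors, no count filter, no fold minimum, at least 3 cells, thinned cells (2000 UMIs), a block over label letters, library totals without ribosomal and mitochondrial genes, a pseudocount of 10 CPM, one age only, doublets removed and each mouse left out. After seeing the data, plain totals and removal of the 6% of cells per mouse with the highest doublet scores were added. All members were named; other listed genes were named only if called, from at most the 4 largest changes per list and type, and the 3 genes nearest to each member. The members and lists were chosen with earlier results of these data known. Intervals and zero limits cover counting error only. In these sums, fewer cells of a subtype and less RNA per cell cannot be told apart.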

Additional observations from a re-analysis of the deposited data

Results flagged for a closer look

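Itga5 in Luminal-AV cells of Aged A, at 3.62 CPM, lay far from the other aged mice (0.645 to 0.955 CPM), by Dixon's test within a group of 4. Among 50 groups of aged values tested this was the 1 beyond the critical value, and chance gives about 1 in 20.

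The age change differed between types, by a test of the difference itself, for Itgav in Myoepithelial against Luminal-HS cells (-1.34 on the log2 scale), Itgb4 in the same pair (-1.35) and in Myoepithelial against Luminal-AV cells (-1.79), and Itga5 in Myoepithelial against Luminal-AV (2.58), Vascular endothelial against Fibroblast (1.30) and Pericyte against Vascular endothelial cells (-2.53). In the order given, these calls were kept in 11, 3, 11, 4, 7 and 12 of 12 alternative settings. In these pairs of types 6.27% to 9.35% of all genes tested were called.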

How the results depend on the processing

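The 11 age calls among members became 5 with the label letters as a replicate block over 6 mice, and 5 with cells thinned to 2000 UMIs, where 8 of the 11 had a value. Leaving out 1 mouse at a time gave 5 to 12, with the fewest without Young A, and the other settings gave 9 to 13. DESeq2 ended 2 (Itga3 in Myoepithelial and Itgb5 in Vascular endothelial cells), as did plain library totals (Itgb1 and Itga3 in Myoepithelial cells). Deviations of same-lettered mice from their group means correlated at -0.174 to 0.0666 over types and letters. With so few mice per group this cannot show that the letters mark nothing shared in handling. Between types the 28 calls became 18 without the mouse block (no replicate block), where 20 had a value and 2 were lost. The 6 calls on the difference of the age change became 3 to 5 with 1 mouse left out, of which 2 to 5 were among the 6 (2 without Young A). In young mice alone, the difference of Itgav between Myoepithelial and Luminal-HS cells turned to 0.74 and that of Itga5 between Pericyte and Vascular endothelial cells to 0.77; neither was called over all mice. Plain library totals moved the median change of all genes by over 0.1 in each of the 6 types, to between -0.10 and -0.41, reversed no called member change with age, and moved the share of calls that rose from 55.0% to 22.4% in Vascular endothelial, 47.1% to 18.1% in Luminal-AV, 60.9% to 34.3% in Pericyte, 62.8% to 39.2% in Luminal-HS, 65.1% to 49.5% in Fibroblast and 46.4% to 36.2% in Myoepithelial cells. The causes were not tested. Depth limits Itga1, Itga2, Itgb3 and Itgb4, which had 163 to 1005 UMIs in all. It also limits Itga5 (1747 UMIs in all) where few cells held it, as in 14 of 118 aged Pericyte and 18 of 281 young Myoepithelial cells.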
